A study of Mus musculus with 6 samples.

Results

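DNA replication and nucleotide synthesis genes encode the proteins that load and fire replication origins, copy DNA at the fork, make deoxynucleotides and package the new strands. A list of 41 mouse gene symbols was used, and all 41 were found among the 39179 genes of the count table. Of these, 40 had at least 30 counts summed over the 6 libraries and are described here. The exception was Fen1, the flap endonuclease that trims Okazaki fragments, with 26 counts in all. Most of its annotated exon sequence (2039 bases) lies over exons of Tmem258 and Gm10143.

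The study compared neural cells that express G392E neuroserpin with cells that express GFP. Neuroserpin is a secreted serine protease inhibitor of neurons, and the G392E form is one of the variants known in people with familial encephalopathy with neuroserpin inclusion bodies, in which the protein polymerises in the endoplasmic reticulum. Bulk RNA sequencing was done on 2 groups of 3 libraries. In the G392E-NS group, neural progenitor cells taken from the cerebral cortex of CD1 mouse embryos at E13.5 expressed G392E neuroserpin stably and were then differentiated. In the GFP group, cells of the same origin, strain and differentiation expressed GFP stably. All libraries are therefore of differentiated cultures, which were grown in flasks. The labels do not say how many lines, embryos or separate cultures lie behind the libraries, so the p-values measure the spread between these libraries, which may be technical.

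Before a cell copies its DNA, the origin recognition complex, Cdc6 and Cdt1 load the MCM2-7 helicase onto origins, a step called licensing. In S phase Cdc45 and the GINS complex join MCM2-7 to make the active helicase, PCNA and its loader RFC hold polymerases on the template, and ribonucleotide reductase, thymidylate synthase and thymidine kinase supply deoxynucleotides. Most of these genes are targets of E2F transcription factors, which the retinoblastoma protein restrains in cells that leave the cycle, whereas many mitosis genes are switched on later through CCAAT-binding NF-Y and other factors.

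The promoters were searched for E2F and CCAAT motifs, and most windows held no E2F match. In the RefSeq promoter windows (build GRCm38.p6), which run from 250 bases before to 50 bases after each start, 32 of the 40 genes had 36 windows. The E2F motif was searched on both strands, with overlapping matches allowed, as TTTCCCGC, TTTCGCGC, TTTGGCGC or TTTGCCGC. At least one of them was present in 13 windows (36.1%), against 2.26% of all 32851 windows and 1 of 28 windows (3.57%) of the mitosis genes. The CCAAT motif, also searched on both strands, was in 22 windows (61.1%) of the replication genes, 23 windows (82.1%) of the mitosis genes and 37.4% of all windows. Both motifs stood in 9 windows (25%) of the replication genes, against 0.962% of all windows. A match is a description of the letters, not proof of a bound site.

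The 4 windows printed here show how the motif sits in genes that later appear in different places in the results. Each is written 5′ to 3′ in the direction of the gene, with E2F matches in capitals. Mcm6 has 3 matches, of which a pair overlaps. Mcm7, the member with the highest level per length, has 2. Gins3 belongs to the helicase activation group, and Uhrf1 is among the members that varied most between libraries. Mcm7 and Uhrf1 each have another window, at a different start, which held 0 E2F matches and is not printed. The printed windows lie at chr1:128359656-128359955 (minus strand), chr5:138171834-138172133 (minus strand), chr8:95633309-95633608 (plus strand) and chr17:56304063-56304362 (plus strand).
Mcm6: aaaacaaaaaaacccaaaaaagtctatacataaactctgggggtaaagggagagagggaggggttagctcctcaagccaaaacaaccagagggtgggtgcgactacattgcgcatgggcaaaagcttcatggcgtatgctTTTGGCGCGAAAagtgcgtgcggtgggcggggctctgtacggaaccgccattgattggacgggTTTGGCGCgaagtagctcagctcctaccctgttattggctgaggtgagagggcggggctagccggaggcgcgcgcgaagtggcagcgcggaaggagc
Mcm7: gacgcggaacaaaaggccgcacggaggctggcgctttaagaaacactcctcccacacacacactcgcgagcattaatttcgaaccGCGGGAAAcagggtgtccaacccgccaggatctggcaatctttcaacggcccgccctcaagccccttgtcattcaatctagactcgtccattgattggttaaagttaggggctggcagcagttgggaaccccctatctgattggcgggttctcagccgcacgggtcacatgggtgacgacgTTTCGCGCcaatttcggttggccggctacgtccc
Gins3: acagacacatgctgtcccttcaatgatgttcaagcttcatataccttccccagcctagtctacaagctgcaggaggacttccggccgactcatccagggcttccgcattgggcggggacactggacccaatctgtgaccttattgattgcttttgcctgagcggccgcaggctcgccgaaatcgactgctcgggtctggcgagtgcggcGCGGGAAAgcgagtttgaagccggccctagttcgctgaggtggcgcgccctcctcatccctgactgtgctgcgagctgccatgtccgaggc
Uhrf1: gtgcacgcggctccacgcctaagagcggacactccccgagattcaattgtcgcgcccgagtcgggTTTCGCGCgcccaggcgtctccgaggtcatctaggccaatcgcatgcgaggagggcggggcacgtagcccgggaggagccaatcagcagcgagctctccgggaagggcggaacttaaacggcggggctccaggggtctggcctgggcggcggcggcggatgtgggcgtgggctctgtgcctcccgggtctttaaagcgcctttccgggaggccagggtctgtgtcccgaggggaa
The matches of Mcm6 begin 110, 106 and 47 bases before the start, that of Gins3 begins 41 bases before it and that of Uhrf1 185 bases before it. Mcm7 has a match 165 bases before the start and another beginning at base 17 of the transcript, which shares a base with a CCAAT motif. The other genes with a match were Cdc6, Cdt1, Lig1, Mcm3, Mcm5, Orc1, Pola1, Pold1 and Rfc3. Mcm4, Gins1, Gins2, Gins4, Rfc2, Prim2, Pole and Ccne2 had no window in the table.

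**Figure D1:**
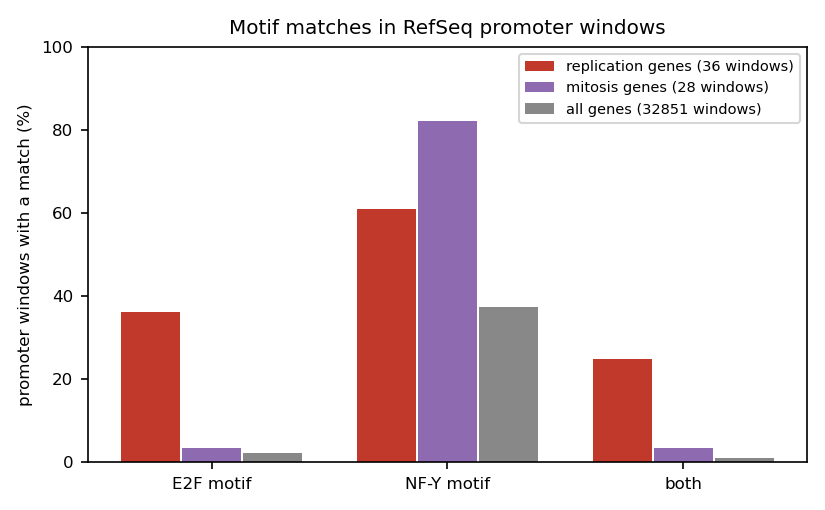
Percent of RefSeq promoter windows (vertical axis) that hold an E2F motif, an NF-Y motif or both, for the replication genes, the mitosis genes and all genes. The E2F motif was in 36.1% of the replication gene windows, 3.57% of the mitosis gene windows and 2.26% of all windows.

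The libraries held 15507487 to 24835835 counts in G392E-NS and 16958952 to 22936447 in GFP. GFP replicate 3 stood apart in its low counts of mitosis genes, so results that rest on it are given with and without it. Serpini1, the mouse neuroserpin gene, had 5.44, 6.74 and 4.95 CPM (a read count scaled to its library's size with edgeR's TMM factors) in G392E-NS and 4.20, 5.17 and 4.70 CPM in GFP, with an adjusted p of 0.419. The sources do not say whether the transgene would be counted in that row, so it does not check the labels. Xist, the RNA that coats the inactive X chromosome, averaged 1493 ± 345 CPM in G392E-NS and 1.51 ± 0.0828 CPM in GFP (SD, n = 3 each), so the cells of the groups also differed in a transcript that goes with sex, which cannot be told apart from the transgene. Of the markers of other cell types, the 7 of microglia summed to at most 0.326 CPM in G392E-NS and 0.351 CPM in GFP, with Csf1r at 0. The 6 endothelial markers summed to at most 1.31 CPM in G392E-NS and 1.25 CPM in GFP (Cldn5 and Cdh5 at 0), and the 8 fibroblast and mural markers to at most 3.52 CPM in G392E-NS and 0.702 CPM in GFP (Dcn and Lum at 0). Among the 10 astrocyte markers 4 rose (Gjb6, Slc1a2, Aldoc and Aldh1l1), and the list summed to 7973, 12890 and 8089 CPM in G392E-NS against 4933, 3476 and 4891 CPM in GFP. Of the 10 progenitor markers Prom1 rose and Nes fell, Gap43 rose among 8 neuron markers tested, and Mog and Pdgfra rose among 8 oligodendrocyte lineage markers. The calls of Gjb6, Prom1 and Gap43 held under all 17 alternatives run on them. Leaving out any library other than G392E-NS replicate 1 ended the Nes call (log2 fold changes -0.86 to -0.60). In all, the Nes call was lost under 10 of 17 alternatives. Leaving out any library other than G392E-NS replicates 1 and 3 ended the calls of Mog (1.95 to 2.55) and Pdgfra (1.004 to 1.31). The Aldh1l1 call ended without G392E-NS replicate 3 or any GFP library (1.06 to 1.19), that of Aldoc without GFP replicate 1 or 2 (2.01 and 1.74), and that of Slc1a2 without GFP replicate 2 or 3 (1.19 and 1.30). In bulk RNA, fewer cells of a type and less RNA per cell cannot be told apart, and the part of these markers in the results that follow was not tested.

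None of the replication genes passed the test between the groups. Of the 40 members, 39 passed the low-count filter, and edgeR's quasi-likelihood test with Benjamini-Hochberg adjustment over all 13775 genes tested called 0 of them higher and 0 lower in G392E-NS at an adjusted p of 0.05. Over all genes tested, 6.15% were called, 4.79% as higher and 1.36% as lower in G392E-NS. The smallest adjusted p among the members was 0.108. At an unadjusted p of 0.05 there were 2 of 39 members, 1 higher (Cdc45) and 1 lower (Tyms), against 22.4% of all genes tested. DESeq2 and limma-voom also called 0 members, with 1 and 2 members at an unadjusted p of 0.05. Cdc6, with 46 counts, was not tested.

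The size of the differences was small for most members and poorly bounded for some. The log2 fold changes of G392E-NS over GFP ran from -0.55 (Tk1) to 0.56 (Cdc45), with 13 above 0, 26 below and a median of -0.05, beside a median of -0.0047 over all genes tested. The 95% confidence interval lay within 2-fold either way for 28 members and within 1.5-fold for 18 of those. For the other 11 a 2-fold difference lay inside the interval, so a missing call does not show equal levels. The 3 libraries of each group did not overlap for 4 members, all lower in G392E-NS (Tyms, Mcm6, Slbp and E2f1), against 28.6% of all genes tested in either direction. Summed over the 40 genes, the level was 604, 611 and 644 CPM in G392E-NS and 636, 682 and 639 CPM in GFP. These sums overlapped, with means of 620 ± 21.8 CPM in G392E-NS and 652 ± 25.8 CPM in GFP (SD, n = 3 each). With total-count scaling they were 602, 580 and 638 CPM in G392E-NS and 652, 696 and 652 CPM in GFP. There every G392E-NS library lay below every GFP library, so the overlap depends on the scaling.

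**Figure D2:**
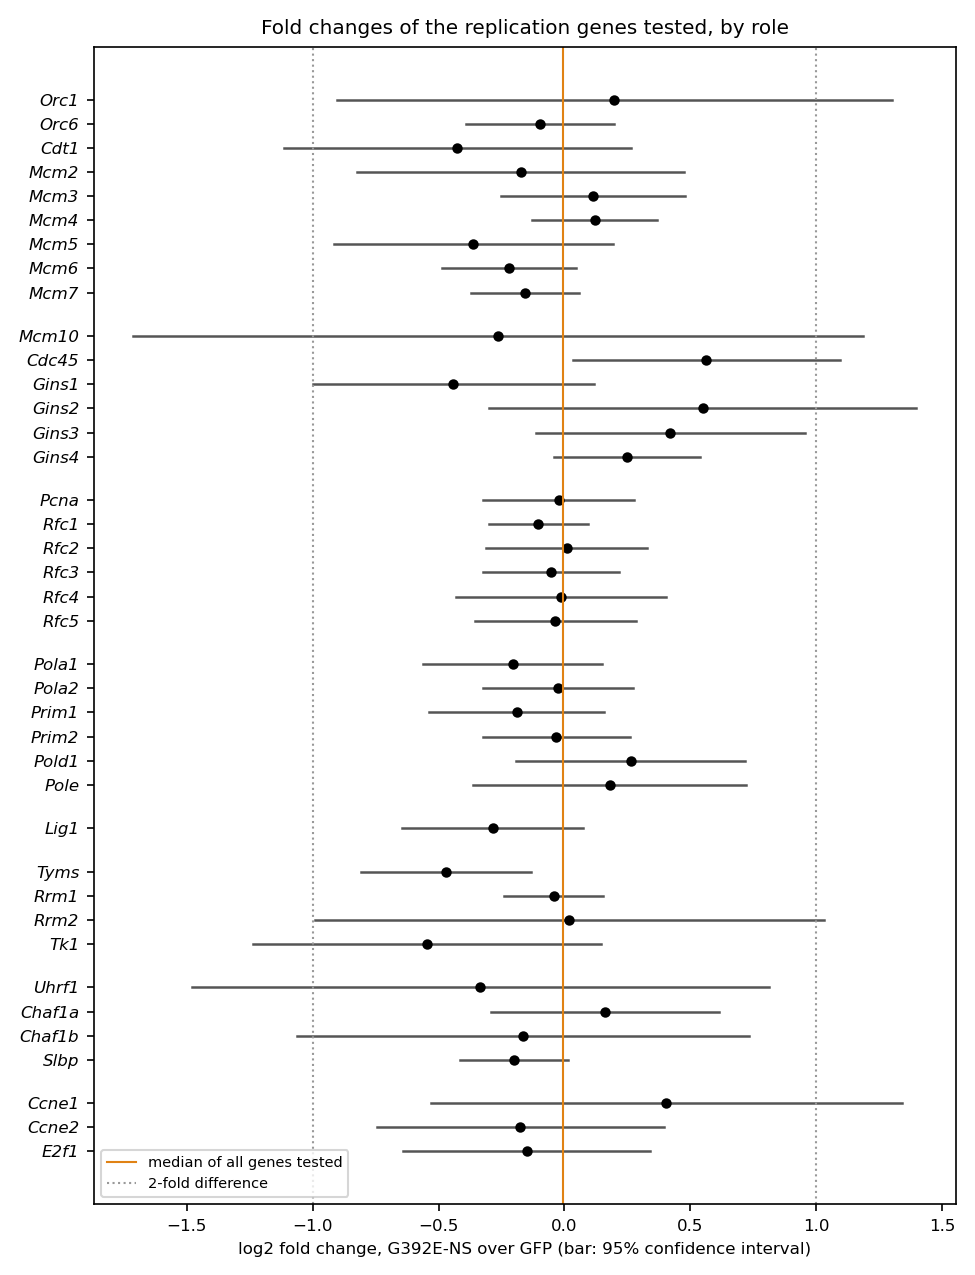
Log2 fold change of G392E-NS over GFP for each of the 39 members tested, in order of role, with its 95% confidence interval from the edgeR fit. Points run from -0.55 (Tk1) to 0.56 (Cdc45) and most sit near the line that marks the median of all genes tested, while Mcm10, Orc1 and Uhrf1 have the widest bars.

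Levels per kilobase of exon (RPKM, averaged over the 6 libraries) set the members in order, and most were low. Only 7 of the 40 lay above the median of the genes tested. These were Mcm7 (24.2 RPKM), Pcna (14.4), Gins4 (12.5), Rfc1 (11.6), Rrm1 (8.31), Orc6 (8.28) and Mcm4 (6.35). Rrm1 and Orc6 were level, while Mcm10 and Cdc6 stood last with 0.09 and 0.0735 RPKM. The subunits of the MCM2-7 ring, which assemble in equal numbers as protein, spanned 1.91 RPKM for Mcm2 to 24.2 RPKM for Mcm7. Mcm7 hosts the microRNA genes Mir25 and Mir93, and 557 of its exon bases lie over these and other annotated genes. Its count may include their reads, or may lack its own reads there if shared reads were left out. How shared reads were counted was not given. The same limit applies to 14 of the 40 members, among them Gins2, with 2758 exon bases over Gse1, and Chaf1a, with 4648 over Ubxn6.

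**Figure D3:**
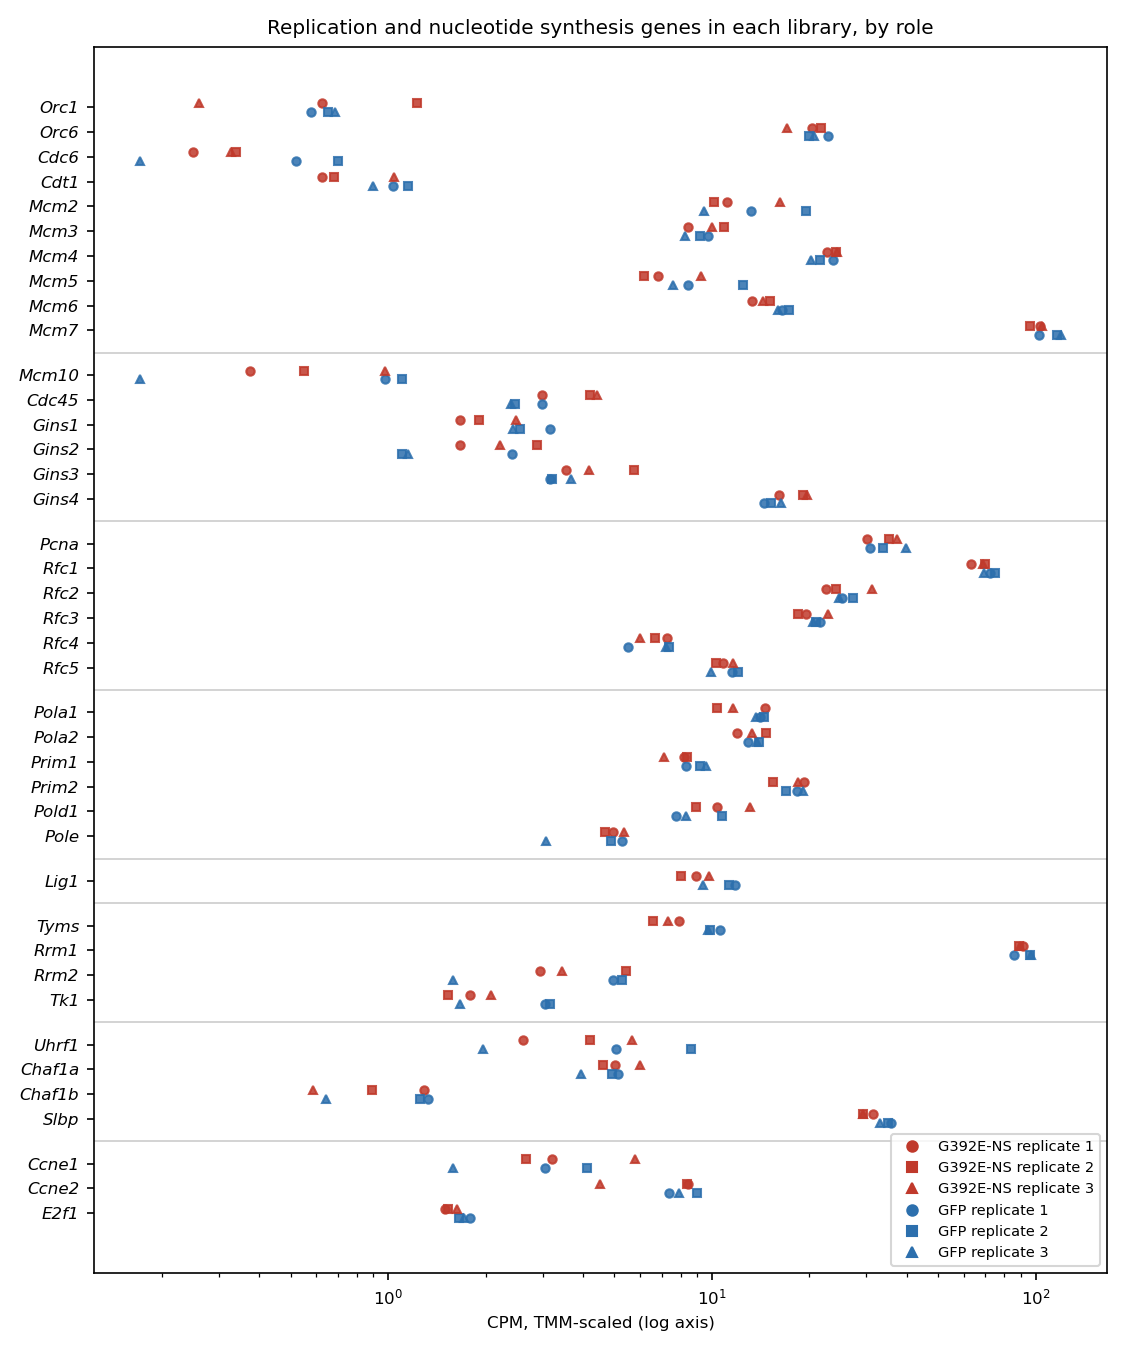
TMM-scaled CPM of each of the 40 members in each library on a log axis, in order of role, with the 3 G392E-NS libraries above the 3 GFP libraries for each gene. The groups lie on top of each other for most genes, and Mcm10, Cdc6, Uhrf1, Rrm2 and Ccne1 have GFP replicate 3 at the far left.

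Among the origin and licensing genes, Mcm6 and Mcm5, subunits of the MCM2-7 ring, and Mcm7 had the smallest p-values. Mcm6 had 13.3, 15.1 and 14.4 CPM in G392E-NS and 16.5, 17.3 and 16.0 CPM in GFP. Every G392E-NS library lay below every GFP library, by a modest margin (log2 fold change -0.22 ± 0.12 SE, adjusted p = 0.304). Mcm5 had 6.81, 6.19 and 9.25 CPM in G392E-NS and 8.46, 12.4 and 7.57 CPM in GFP, where GFP replicate 2 was well above the rest and the groups overlapped (log2 fold change -0.36 ± 0.24 SE, adjusted p = 0.415). Mcm7 had 103, 96.2 and 105 CPM in G392E-NS and 103, 117 and 120 CPM in GFP. Its GFP replicate 1 fell inside the G392E-NS range (log2 fold change -0.16 ± 0.09 SE, adjusted p = 0.362). Over the 9 members of this group tested, 3 were above 0 and 6 below, with a median log2 fold change of -0.16. Orc6, a subunit of the origin recognition complex, and Mcm4 were held within narrow limits, with highest over lowest library ratios of 1.34 and 1.21.

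The genes of helicase activation were the only role group whose median lay above 0, at 0.34 over 6 members (4 above 0 and 2 below). Of these, 2 have exons over another gene, Cdc45 (209 bases over Ufd1) and Gins2. They had the highest log2 fold changes of the group. The remaining genes lay on both sides of 0, at 0.42 (Gins3), 0.25 (Gins4), -0.26 (Mcm10) and -0.44 (Gins1). The sign of the group's median thus depends on Cdc45 and Gins2. Cdc45, which joins the GINS complex and MCM2-7 at the fork, had 2.99, 4.20 and 4.43 CPM in G392E-NS and 2.99, 2.46 and 2.39 CPM in GFP. G392E-NS replicates 2 and 3 lay above all GFP libraries, while replicate 1 was level with GFP replicate 1 (log2 fold change 0.56, 95% confidence interval 0.03 to 1.09, adjusted p = 0.200). Gins2, Gins3 and Gins4, 3 of the 4 subunits of GINS, lay on the same side. Gins4 had 16.1, 19.1 and 19.7 CPM in G392E-NS and 14.5, 15.2 and 16.4 CPM in GFP, with G392E-NS replicate 1 inside the GFP range (log2 fold change 0.25 ± 0.13 SE, adjusted p = 0.290). Gins3 had 3.53, 5.76 and 4.17 CPM in G392E-NS and 3.17, 3.21 and 3.68 CPM in GFP. Here too only G392E-NS replicate 1 reached into the range of GFP (log2 fold change 0.42 ± 0.23 SE, adjusted p = 0.331). Gins2 had 1.66, 2.88 and 2.22 CPM in G392E-NS and 2.42, 1.10 and 1.15 CPM in GFP, with GFP replicate 1 among the G392E-NS values (log2 fold change 0.55 ± 0.37 SE, adjusted p = 0.419). The fourth subunit, Gins1, lay on the other side, with 1.66, 1.91 and 2.48 CPM in G392E-NS and 3.17, 2.56 and 2.44 CPM in GFP, where the highest G392E-NS library just passed the lowest GFP library (log2 fold change -0.44 ± 0.24 SE, adjusted p = 0.329). The subunits of this complex thus had fitted differences of both signs, none past the threshold.

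The clamp, its loader and the polymerases had narrow intervals, all within 2-fold either way. Pcna, the sliding clamp, had 30.2, 35.4 and 37.4 CPM in G392E-NS and 30.9, 33.8 and 39.8 CPM in GFP. The groups covered the same range (log2 fold change -0.02, 95% confidence interval -0.32 to 0.28). All 6 clamp and loader genes had intervals within 1.5-fold, with log2 fold changes of -0.10 (Rfc1, the large loader subunit) to 0.01 (Rfc2). Prim2, the large primase subunit, had 19.3, 15.4 and 18.5 CPM in G392E-NS and 18.3, 17.0 and 19.1 CPM in GFP, also overlapping (log2 fold change -0.03, 95% confidence interval -0.33 to 0.26). The catalytic subunits of the 3 replicative polymerases lay on either side of 0, with log2 fold changes of -0.21 for Pola1 (primer synthesis), 0.26 for Pold1 (lagging strand) and 0.18 for Pole (leading strand) and adjusted p-values of 0.470, 0.473 and 0.698. Lig1, which seals Okazaki fragments, had 8.93, 8.01 and 9.77 CPM in G392E-NS and 11.8, 11.3 and 9.40 CPM in GFP. GFP replicate 3 was the library that crossed into the G392E-NS range (log2 fold change -0.29 ± 0.16 SE, adjusted p = 0.328).

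The nucleotide genes included Tyms, the member with the smallest p. Tyms, thymidylate synthase, had 7.89, 6.57 and 7.30 CPM in G392E-NS and 10.6, 9.88 and 9.70 CPM in GFP. The groups did not overlap, and the GFP libraries were the closer together (log2 fold change -0.47, 95% confidence interval -0.81 to -0.13, unadjusted p = 0.0125, adjusted p = 0.108). Tk1, thymidine kinase 1, which salvages thymidine, had 1.79, 1.53 and 2.09 CPM in G392E-NS and 3.05, 3.16 and 1.67 CPM in GFP, with GFP replicate 3 among the G392E-NS values (log2 fold change -0.55 ± 0.30 SE, adjusted p = 0.329). The subunits of ribonucleotide reductase varied unequally across libraries. Rrm1, the large subunit, had 91.6, 89.2 and 89.8 CPM in G392E-NS and 85.5, 96.0 and 97.0 CPM in GFP, the steadiest of all members with a highest over lowest ratio of 1.14. Rrm2, the small subunit made in S phase, had 2.95, 5.42 and 3.45 CPM in G392E-NS and 4.95, 5.27 and 1.58 CPM in GFP, a ratio of 3.43. Neither passed the test, with log2 fold changes of -0.04 for Rrm1 and 0.02 for Rrm2 and adjusted p-values of 0.815 and 0.984.

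Chromatin and G1/S members gave the same picture. Slbp, which binds the stem-loop of histone mRNAs, had 31.5, 29.4 and 29.4 CPM in G392E-NS and 35.8, 35.0 and 33 CPM in GFP. No library of the groups overlapped, and the difference was small (log2 fold change -0.20 ± 0.09 SE, adjusted p = 0.254). E2f1, the E2F family member that drives S-phase entry, had 1.5, 1.53 and 1.63 CPM in G392E-NS and 1.78, 1.66 and 1.71 CPM in GFP, not overlapping but close (adjusted p = 0.726). Ccne2, a cyclin that activates Cdk2 at the start of S phase, had 8.43, 8.39 and 4.50 CPM in G392E-NS and 7.37, 8.98 and 7.91 CPM in GFP, where G392E-NS replicate 3 alone was low (log2 fold change -0.17 ± 0.25 SE, adjusted p = 0.723). Chaf1a and Chaf1b, subunits of the histone chaperone CAF-1, had log2 fold changes of 0.16 and -0.17 and adjusted p-values of 0.671 and 0.843.

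The replication genes were steadier across libraries than the mitosis genes. The highest library stood at a median of 1.5 times the lowest over the 40 members, from 1.14 (Rrm1) to 6.45 (Mcm10), and 20 members stayed under 1.5-fold. Among 30 mitosis genes the median was 4.16 times, and 20 of them passed 3-fold. Of the 30, 1 had a library at 0 counts and so no finite ratio. Summed, the mitosis genes had 54.8, 50.7 and 75.5 CPM in G392E-NS and 112, 155 and 35.0 CPM in GFP, a highest over lowest ratio of 4.43 against 1.13 for the replication genes. GFP replicate 2 was thus high and GFP replicate 3 low for mitosis genes, while the summed replication genes were nearly level. Mki67, the Ki-67 proliferation marker, had 1.91, 1.06 and 3.91 CPM in G392E-NS and 8.69, 16.2 and 0.513 CPM in GFP (log2 fold change -1.92 ± 0.94 SE, adjusted p = 0.277). GFP replicate 3 was the lowest GFP library for 30 of 30 mitosis genes and for 25 of 40 replication genes. No formal test of the difference in spread between the lists was made. The mitosis genes were also lower, with 0 of 30 above the median level per length of the genes tested, against 7 of 40 replication genes. The part of level in the spread was not tested.

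A few replication genes, named after their values were seen, had the library order that was common among the mitosis genes. GFP replicate 2 was the highest and GFP replicate 3 the lowest of all libraries for 21 of 30 mitosis genes and for 5 of 40 replication genes, namely Cdc6, Mcm10, Mcm2, Rfc5 and Uhrf1. Uhrf1, which guides maintenance methylation to newly copied DNA, had 2.62, 4.20 and 5.67 CPM in G392E-NS and 5.06, 8.63 and 1.97 CPM in GFP. Mcm10, which helps fire the helicase, had 0.374, 0.551 and 0.977 CPM in G392E-NS and 0.978, 1.10 and 0.171 CPM in GFP, from 80 counts in all. Mcm2 had 11.2, 10.2 and 16.2 CPM in G392E-NS and 13.2, 19.6 and 9.45 CPM in GFP. The order that picked these genes puts their G392E-NS values inside the GFP range. The adjusted p-values were 0.739 for Uhrf1, 0.844 for Mcm10 and 0.760 for Mcm2. Of the 40 members, 6 varied by more than 3-fold, and Mcm2 (2.07-fold) was not among them. Orc1, Rrm2 and Ccne1 were, but with other libraries at the top. The highest value was in G392E-NS replicate 2 for Orc1 and Rrm2 and in G392E-NS replicate 3 for Ccne1.

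**Figure D4:**
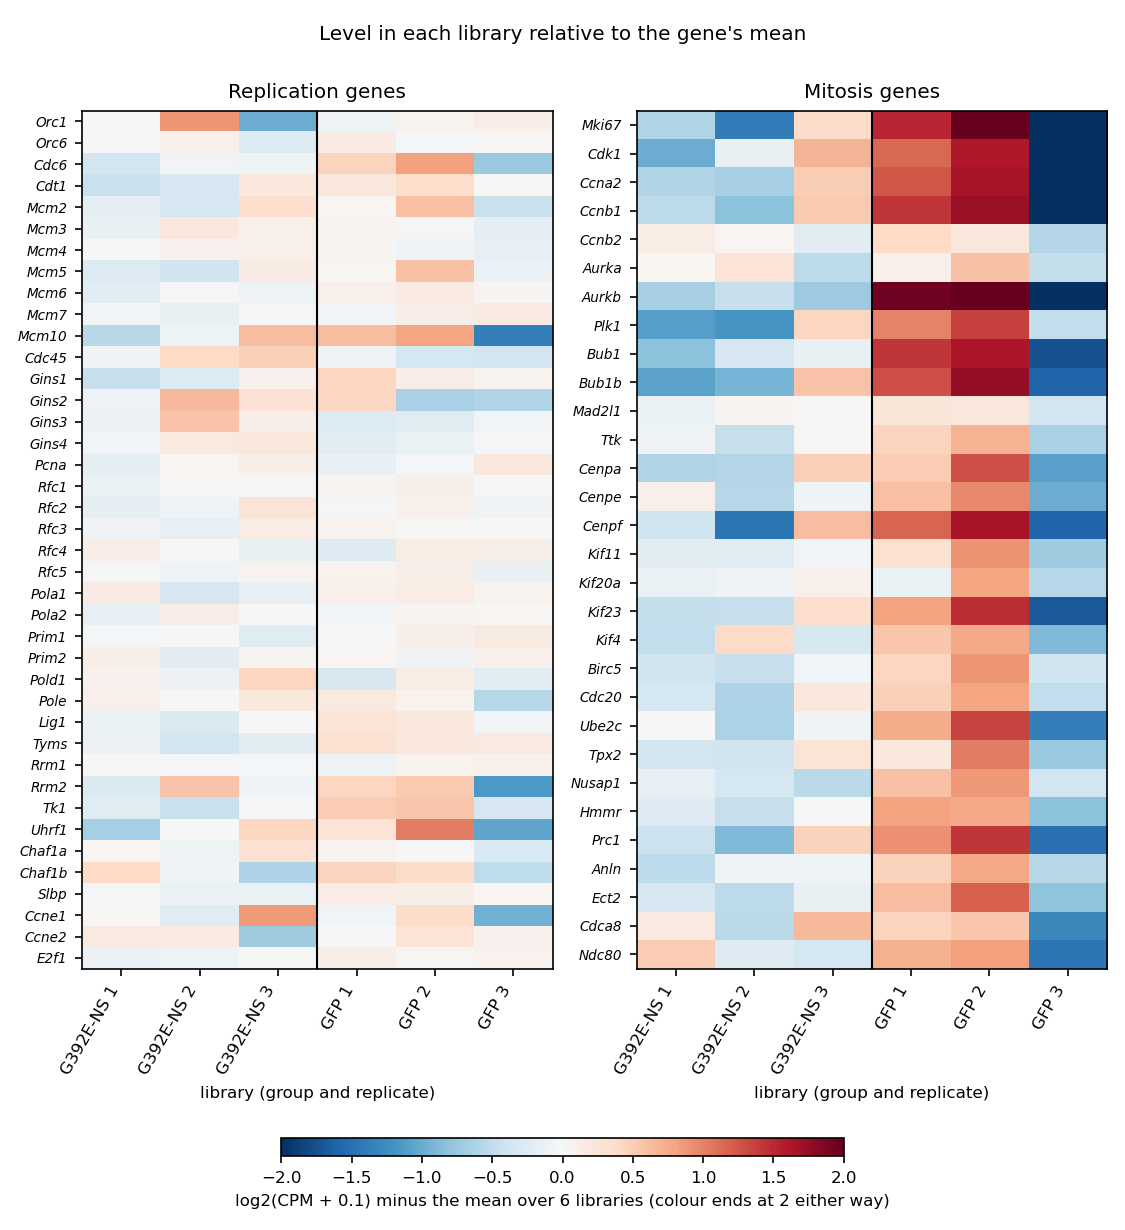
Level of each replication gene (left) and mitosis gene (right) in each library, as log2(CPM + 0.1) minus the gene's mean over the 6 libraries, with the G392E-NS libraries left of the GFP libraries. Most mitosis genes are high in GFP replicates 1 and 2 and low in GFP replicate 3, while most replication genes are pale throughout, with Mcm10, Uhrf1, Rrm2, Orc1 and Ccne1 among the exceptions.

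No replication gene was called when any library was left out. With all 6 libraries 0 of 29 mitosis genes tested were called by edgeR, and 0 by DESeq2 and limma-voom, with 28 below 0, a median log2 fold change of -0.73 and 1 gene at an unadjusted p of 0.05 (Nusap1, a spindle protein, adjusted p = 0.191). Their median moved to -0.25 without GFP replicate 2, the library highest for these genes, and to -1.08 without GFP replicate 3, the lowest of the GFP libraries. It ran from -0.86 to -0.65 when any other library was left out. Without GFP replicate 3 the test called 5 of 30 mitosis genes lower in G392E-NS (Aurkb, Bub1, Ect2, Mki67 and Nusap1), and 0 when any other library was left out. The fit without GFP replicate 3 called 3.93% of all 13955 genes tested, 382 higher and 167 lower. Since GFP replicate 3 was the lowest GFP library for all 30 genes, a shift in this direction follows from leaving it out, and the 5 calls are given as a description only. The replication genes had a median of -0.02 without GFP replicate 2 and -0.11 without GFP replicate 3, where 0 of 40 were called and 3 stood at an unadjusted p of 0.05. The share of all genes at that unadjusted p was not taken without GFP replicate 3. Cdc6, which passed the filter in only some of these settings, had the lowest log2 fold change without GFP replicate 3, -1.01 ± 0.39 SE (adjusted p = 0.205).

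**Figure D5:**
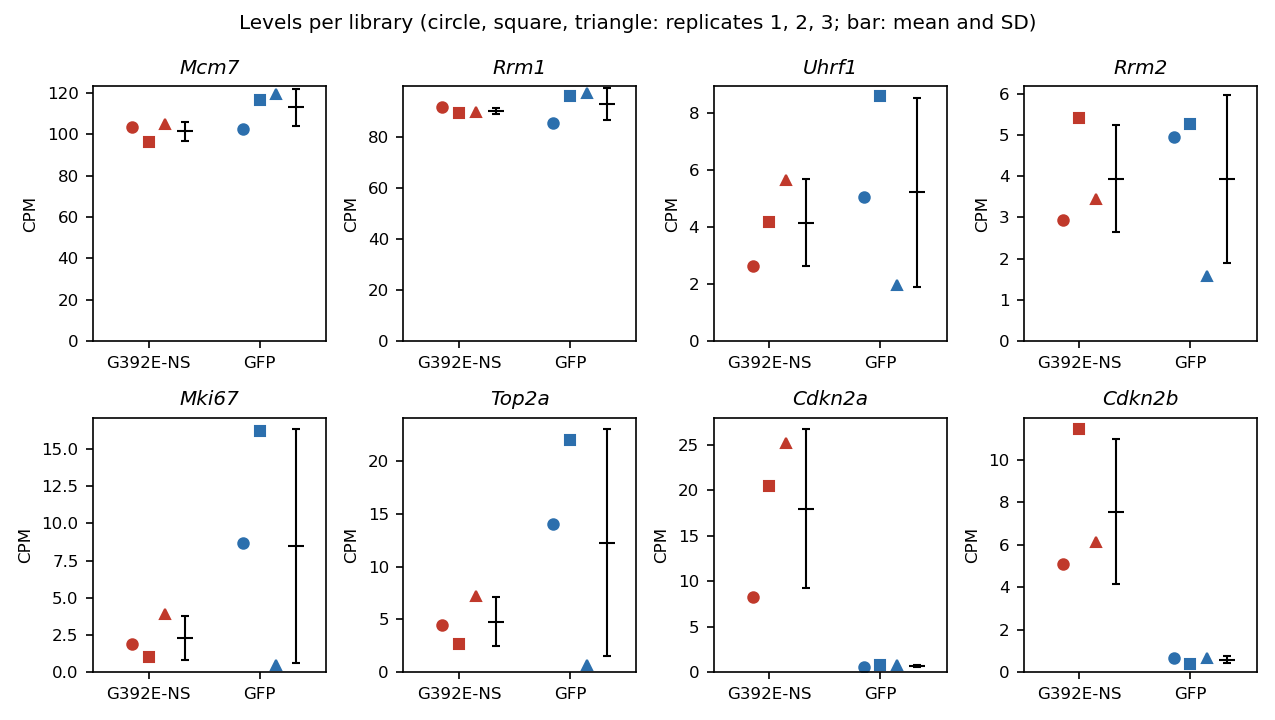
CPM per library on linear axes for the replication genes Mcm7, Rrm1, Uhrf1 and Rrm2, the proliferation genes Mki67 and Top2a, and the cell cycle inhibitors Cdkn2a and Cdkn2b, with G392E-NS left of GFP and bars for the mean and SD of 3 libraries. Mcm7 and Rrm1 are level across libraries, Uhrf1, Rrm2, Mki67 and Top2a are low in GFP replicate 3, and Cdkn2a and Cdkn2b are higher in every G392E-NS library than in any GFP library.

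Other genes of replication were called in small numbers, too small to set apart from the 6.15% called and the 22.4% at an unadjusted p of 0.05 over all genes. Among 37 other fork and origin genes tested by edgeR, 1 rose and 0 fell (3 and 5 at an unadjusted p of 0.05), with a median log2 fold change of -0.14. The gene that rose was Rpa1, the large subunit of the protein that covers single-stranded DNA, with 56.7, 86.3 and 67.8 CPM in G392E-NS and 46.6, 43.6 and 43.5 CPM in GFP (log2 fold change 0.66 ± 0.15 SE, adjusted p = 0.043). Its call was lost when any library other than G392E-NS replicate 1 was left out, with log2 fold changes of 0.49 to 0.69. Without G392E-NS replicate 1 the list had 2 higher and 1 lower, in a fit that called 9.86% of all genes tested. Among 29 other nucleotide supply genes 0 rose and 1 fell (4 and 3 unadjusted), with a median of 0.01. That gene was Mthfd2, a mitochondrial enzyme of folate one-carbon metabolism, with 7.10, 8.09 and 7.30 CPM in G392E-NS and 11.5, 13.4 and 14.6 CPM in GFP (log2 fold change -0.81 ± 0.15 SE, adjusted p = 0.0205). Its call was lost when GFP replicate 1, 2 or 3 was left out, at -0.90, -0.80 and -0.73. Among 26 other S-phase chromatin and repair genes 0 rose and 1 fell (0 and 5 unadjusted), with 24 below 0 and a median of -0.14. Cdca7, a chromatin remodelling cofactor, had 3.91, 5.17 and 3.84 CPM in G392E-NS and 11.4, 10.3 and 6.11 CPM in GFP, with an adjusted p of 0.0497 that sat at the threshold. Its call was lost when any library other than GFP replicate 3 was left out, with log2 fold changes of -1.25 to -0.92. In all, the Cdca7 call was lost under 10 of 17 alternatives, RLE scaling and thinned counts among them. DESeq2, which called 10.5% of all genes tested, called 2 higher in the fork and origin list, 1 higher in the nucleotide supply list and 3 lower in the chromatin and repair list. Limma-voom, which called 5.01% of all genes tested, called 0 higher in the fork and origin list and 0 lower in the chromatin and repair list.

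Regulators that act before S phase were called in numbers near those over all genes, and the genes called are given for their own values. Of 30 genes of G1 control and the E2F-RB pathway, edgeR called 3 higher and 0 lower, with 4 higher and 2 lower at an unadjusted p of 0.05, against 6.15% and 22.4% of all genes tested. Cdkn2a, which encodes p16 and p19ARF, had 8.31, 20.5 and 25.2 CPM in G392E-NS and 0.633, 0.802 and 0.769 CPM in GFP. Every G392E-NS library was far above every GFP library (log2 fold change 4.59 ± 0.45 SE, adjusted p = 0.00145). Its neighbour Cdkn2b, which encodes p15, had 5.11, 11.4 and 6.13 CPM in G392E-NS and 0.690, 0.401 and 0.684 CPM in GFP, again without overlap (log2 fold change 3.66 ± 0.40 SE, adjusted p = 0.00232). The p15 and p16 proteins inhibit Cdk4 and Cdk6, the kinases that phosphorylate the retinoblastoma protein. Cdk6 itself had 2.62, 1.65 and 3.06 CPM in G392E-NS and 0.806, 0.903 and 0.470 CPM in GFP (log2 fold change 1.75 ± 0.35 SE, adjusted p = 0.0278). The Cdk6 call was lost when any library other than G392E-NS replicate 2 was left out, at 1.49 to 1.94. The calls of Cdkn2a and Cdkn2b held under all 17 alternatives run on them. In the same libraries Mcm6, Mcm7, Gins3 and Uhrf1, 4 of the 13 genes with an E2F match, had edgeR adjusted p-values of 0.304, 0.362, 0.331 and 0.739. They are the genes whose windows are printed above, and no other gene with a match was called. Whether the inhibitors bear on the genes with a match was not tested.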

How the data were processed

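RNA was sequenced from 6 samples of differentiated mouse neural progenitor cells. The deposited table holds raw counts, whole numbers of reads per Ensembl gene and library with no normalisation, as the values show. The submitters' processing notes list build GRCm38, the aligner TopHat2 (2.0.12), the counter HTSeq (0.6.1), DESeq2 (1.4.5) and R (3.2.2), with no role or order given. For the annotation release, strand setting and filters, nothing was given in the sources used here, so reads of overlapping and antisense genes cannot be told apart. Groups and replicate numbers came from the labels and columns were matched by name. GENCODE M21 (GRCm38) paired 37693 of 39179 IDs with a symbol, position and exon length.

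Genes were tested with edgeR 4.0.16 (limma 3.58.1, R 4.3.3): filterByExpr, TMM scaling, quasi-likelihood F test of G392E-NS over GFP over all 6 libraries, Benjamini-Hochberg over all genes tested, threshold 0.05. Each library held 15507487 to 24835835 counts. The fit's biological coefficient of variation was 0.159. CPM values are TMM-scaled, RPKM divides them by exon length, and intervals are 95%. The scripts were tested on simulated data. Replicates differed beyond counting noise (chi-square per degree of freedom 8.02 to 56.4), so no pair was treated as 1 library deposited in duplicate; the check does not tell separate cultures from repeat preparations. Same-numbered libraries did not deviate together.

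Members and gene lists were chosen with earlier results of these data known. Genes described with values were, by rule, called members and those with the smallest p up to 12, the highest member per length in role groups without one, Serpini1, Mki67, and in each other list up to 4 called genes or the one with the smallest p. Other genes were named after their values were seen. Alternatives tried were DESeq2 1.42.0 (Wald test, its own size factors), limma-voom, scaling by total counts, upper quartiles or RLE, other low-count filters, a replicate block, thinned counts, a 2-fold minimum and each library left out. Removal of GC and length trends, and leaving out members whose exons overlap other genes, were chosen after seeing the data.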

Additional observations from a re-analysis of the deposited data

How the results depend on the processing

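The number of replication genes called stayed at 0 higher and 0 lower under each of the 18 alternatives, DESeq2 and limma-voom included, with a lowest adjusted p of 0.0693 (without G392E-NS replicate 1) to 0.296 (without GFP replicate 2), leaving aside the 2-fold minimum. The members' median log2 fold change ran from -0.11 to -0.02. Under total-count scaling the median of all genes tested moved to -0.07 and 11 members, in place of 13, were above 0. The summed levels of the groups, which overlapped with TMM scaling, did not overlap with total-count scaling.

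Replicate numbers did not pair the samples (correlations of the deviations 0.03, -0.38 and -0.25). With the replicate block 0 members were called in either direction, and over all genes 217 were higher and 50 lower, against 660 and 187. The block also ended the edgeR calls of Rpa1, Mthfd2, Cdca7, Cdk6, Nes, Slc1a2, Aldoc, Aldh1l1 and Pdgfra (adjusted p 0.0725 to 0.121). DESeq2 called 1084 higher and 366 lower over all genes, and leaving out 1 library gave 196 to 981 higher. The cause was not tested.

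Genes with log2 fold changes near 0 changed sign in some settings. With thinned counts Pcna was at 0.0169 and Kdr, an endothelial marker, at 0.0154. With GC and length trends removed Prim2 was at 0.0166. Leaving out 1 library gave -0.10 to 0.0842 for Pcna, -0.12 to 0.0669 for Prim2, -0.33 to 0.0570 for Ccne2 and -0.37 to 0.19 for Kdr. A 2-fold difference could not be bounded for 11 of 39 members.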
